A study of Homo sapiens with 4 samples.

Results

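The interleukin-1 (IL1) family was examined in HCE cells after knockdown of KLF7, a zinc finger transcription factor of the Kruppel-like family. The members were 10 listed genes, taken by their single gene symbol in the array's annotation: the agonist ligands IL1A, IL1B, IL18, IL33 and IL36G, the antagonists IL1RN and IL36RN, and the receptors IL1R1, IL1R2 and IL1RAP. All 10 were on the array, each with 1 probe set, among 18417 genes in all. RNA came from an established cell line that the labels name HCE and call undifferentiated. There were 2 arrays of cells given the scramble control siRNA pool and 2 of cells given the siKLF7 pool, each at 20 nM and collected 48 hours after transfection of 100000 cells per well. The labels do not say whether replicates were separate cultures, so a p-value measures only the spread between these arrays, which may be technical. Values are deposited array signals, and differences are siKLF7 minus control in log2(signal + 16). Signals of different genes come from different probes and were not compared with each other.

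IL1A and IL1B bind the receptor IL1R1, which then takes up the co-receptor IL1RAP and signals through MYD88 and IRAK kinases to NF-kB. IL1RN occupies IL1R1 without signalling, and IL1R2 is a decoy that lacks a signalling domain. IL18 and IL33 have their own receptors, and IL36G acts through IL1RL2 with IL1RAP and is opposed by IL36RN. In stratified epithelia such as the cornea, IL1A and IL33 are held inside cells and released on injury.

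Promoter sequences are shown for the only member that passed a test against scramble control replicate 2 (IL33) and for 3 of the 4 members whose siKLF7 arrays lay outside both controls (IL1A and IL1B below, IL1RAP above). The fourth such member was IL18. RefSeq's table of GRCh38.p14 held promoters for 9 of the 10 members, all but IL18. Each line gives the 250 bases before the most upstream start in that table, on the gene's strand. These are chr2:112784494-112784743 (minus strand) for IL1A, chr2:112836780-112837029 (minus strand) for IL1B, chr9:6214899-6215148 (plus strand) for IL33 and chr3:190513835-190514084 (plus strand) for IL1RAP. Capitals mark matches, on either strand, to CACCC and CCGCCC (motifs of the kind that Kruppel-like factors bind), TGANTCA (AP-1), TATAAA and the NF-kB consensus.
IL1A: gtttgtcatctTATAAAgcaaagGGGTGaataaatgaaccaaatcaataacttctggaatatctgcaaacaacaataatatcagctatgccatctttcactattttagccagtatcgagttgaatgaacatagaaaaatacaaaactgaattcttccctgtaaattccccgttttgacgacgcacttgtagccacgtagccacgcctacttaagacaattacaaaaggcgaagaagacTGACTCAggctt
IL1B: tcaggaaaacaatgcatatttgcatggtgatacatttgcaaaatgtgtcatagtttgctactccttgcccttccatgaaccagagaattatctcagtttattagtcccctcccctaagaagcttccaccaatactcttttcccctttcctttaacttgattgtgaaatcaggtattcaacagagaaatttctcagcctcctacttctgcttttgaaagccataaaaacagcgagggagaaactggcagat
IL33: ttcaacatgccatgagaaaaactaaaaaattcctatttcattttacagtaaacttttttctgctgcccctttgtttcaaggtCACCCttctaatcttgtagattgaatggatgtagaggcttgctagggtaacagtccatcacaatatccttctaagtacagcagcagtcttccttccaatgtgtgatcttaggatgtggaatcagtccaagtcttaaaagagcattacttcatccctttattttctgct
IL1RAP: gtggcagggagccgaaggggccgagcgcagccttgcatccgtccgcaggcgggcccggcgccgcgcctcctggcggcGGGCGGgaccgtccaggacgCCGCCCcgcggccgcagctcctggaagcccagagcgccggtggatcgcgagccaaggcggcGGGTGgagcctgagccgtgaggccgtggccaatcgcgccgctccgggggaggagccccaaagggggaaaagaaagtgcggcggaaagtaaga

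CACCC was found in 7 of the 9 member promoters and in 54.7% of 35116 promoter windows of the same length. The members count 1 start per gene, while these windows count every start of every gene, so the shares are in unlike units. Further starts of a member were not searched for the member counts. The promoters without it were those of IL1B and IL36RN, which held no match to any of the 5 motifs. CCGCCC was found in 1 of 9, that of IL1RAP with 2 matches, against 42.6% of all windows. TGANTCA was found in 2 of 9, IL1A and IL1RN, against 6.57% of all windows. In the IL1RN window a TGANTCA match overlaps a CACCC match. TATAAA was found in IL1A, at -239 from the start, and in IL1R2, at -30, against 10.7% of all windows. The NF-kB consensus was found in 0 of 9, against 5.21%. The G and C content was 37.6% for IL1A and IL33, 40.0% for IL1B and 74.8% for IL1RAP.

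The knockdown was checked on its target. KLF7 signal was 4649 and 2911 in the controls and 1492 and 1122 in the siKLF7 arrays. The 2 control arrays were unlike each other. Across genes, r was 0.934 to 0.938 between scramble control replicate 1 and the remaining arrays, and 0.990 to 0.994 among those 3, so each value is given against each control. Over the 15 measured markers of corneal and stratified epithelium, the summed signal was 39472 and 51804 in the controls and 59232 and 61274 in the siKLF7 arrays. With 3 arrays 7 of the 15 rose and 0 fell in limma (0.89% and 0.679% of all genes), and 11 were above both controls in both siKLF7 arrays (16.3% of all genes). Among them KRT12, a cornea-type keratin, and KRT15, a basal keratin, rose by 0.81 and 0.85. With 4 arrays 0 of the 15 passed (1 at an unadjusted p under 0.05). In scramble control replicate 1, 7 of the 15 were at least 2-fold lower than in replicate 2 and 0 at least 2-fold higher. KRT5 and KRT14, basal keratins, were bright in all 4 arrays, at 8379 or above. KRT12 was at 67.7 in scramble control replicate 1 and at 1570 to 3136 in the other arrays, and KRT3, its partner, was near 0 in that array (0.00549). KRT19 went the other way, at 3456 in that array against 2097 in scramble control replicate 2. Leukocyte markers (15 measured) summed to 3430 and 3141 in the control and 2733 and 2895 in the siKLF7 arrays, with none at 0 and PTPRC, their pan-leukocyte gene, at 25.5 to 31.8. Fibroblast and keratocyte markers (14 measured, none at 0) summed to 4903 and 3159 in the control and 3769 and 3681 in the siKLF7 arrays, with THY1 at 752 and POSTN at 678 in scramble control replicate 1 against at most 111 and 77.4 elsewhere. Of these 14, 3 were at least 2-fold higher and 1 at least 2-fold lower in scramble control replicate 1 than in replicate 2, with a median difference of 0.11, and with 3 arrays LUM and POSTN rose. Vascular endothelial markers (10 measured, none at 0) summed to 4062 and 2534 against 2269 and 2394. Of these 10, 1 was at least 2-fold higher and 0 at least 2-fold lower in scramble control replicate 1 than in replicate 2. Their median difference between the controls was 0.13, so the sum rests on few genes. Melanocyte markers (6 measured, none at 0) summed to 989 and 972 against 862 and 944. The part of these marker differences in the results below was not tested.

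**Figure D1:**
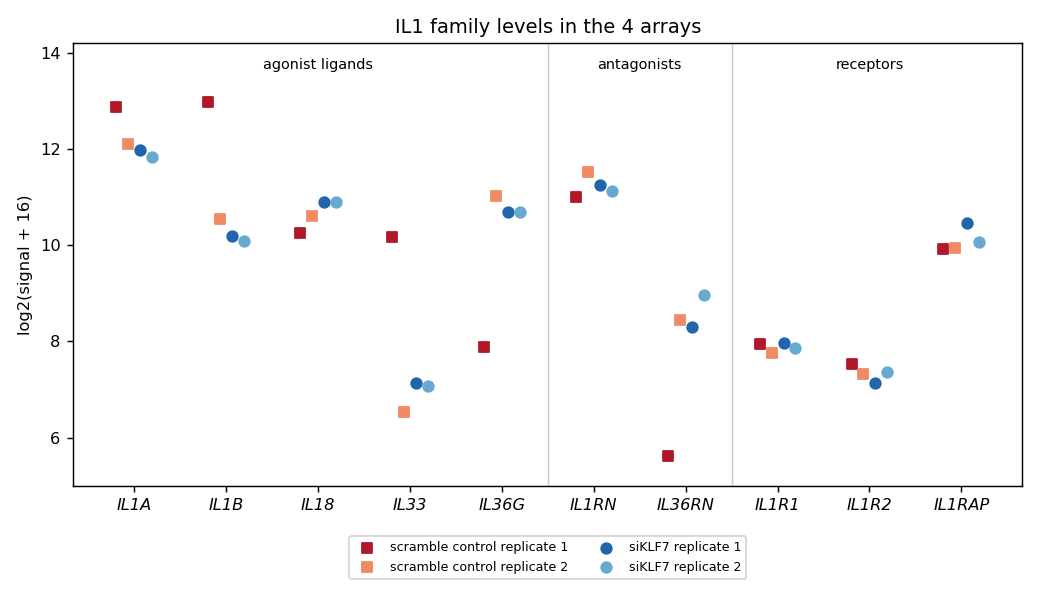
Level of each IL1 family member, as log2(signal + 16), in the 4 arrays (squares: scramble control replicates, circles: siKLF7 replicates). Levels of different genes come from different probes and are not comparable. For IL1B, IL33, IL36G and IL36RN scramble control replicate 1 lies far from the other 3 arrays, while the receptors lie within a range of at most 0.56.

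Among the agonist ligands, IL1A and IL1B were lower in both siKLF7 arrays than in both controls. IL1B, the secreted cytokine that caspase-1 activates, had signals of 8070 and 1486 in scramble control replicates 1 and 2 and of 1156 and 1072 in siKLF7 replicates 1 and 2. The siKLF7 arrays lay close together and below both controls, but the larger gap was between the controls. With 4 arrays the difference was -1.63 (SE 0.81), 3.09-fold lower, with an interval from -3.75 to 0.50 and limma's adjusted p = 0.639. Without scramble control replicate 1 it was -0.41 (SE 0.14), 1.33-fold lower, and limma's adjusted p was 0.151.

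IL1A, an alarmin that epithelial cells store, had signals of 7482 and 4394 in the controls and of 4046 and 3626 in the siKLF7 arrays. The groups did not overlap, and scramble control replicate 2 was closer to the siKLF7 arrays than to the other control. The difference was -0.58 (SE 0.27) with 4 arrays and -0.20 (SE 0.10) with 3 arrays, with limma's adjusted p of 0.639 and 0.418.

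IL18, which is also matured by caspase-1, went the other way. Its signals were 1205 and 1553 in the controls and 1909 and 1907 in the siKLF7 arrays. The siKLF7 arrays were nearly equal and above both controls. The difference was 0.47 (SE 0.17), 1.39-fold higher, with 4 arrays and 0.29 (SE 0.13), 1.23-fold higher, with 3 arrays. IL18 was the only member with an unadjusted limma p under 0.05 with 4 arrays (0.0407), and it did not pass after adjustment in either fit (limma's adjusted p of 0.639 and 0.328).

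IL33, a nuclear alarmin, was the 1 member that passed with 3 arrays. Its signals were 1130 and 75.9 in the controls and 124 and 118 in the siKLF7 arrays. Against scramble control replicate 2 it rose by 0.58 (SE 0.16), or 1.49-fold, with an interval from 0.26 to 0.90 and limma's adjusted p = 0.0391. Both siKLF7 arrays were above that control and far below scramble control replicate 1. IL33 was dim in the 3 arrays of this fit, below the median signal over all genes. That median was 296 in scramble control replicate 2 and 293 and 284 in siKLF7 replicates 1 and 2. Leukocyte markers had medians of 108, 94.1 and 111 in the same arrays. The size of the IL33 rise depended on the pseudocount, at 0.67 with a pseudocount of 1 and 0.51 with 32. With 4 arrays the sign turned, to -1.24 (SE 1.20, limma's adjusted p = 0.693). The siKLF7 values differed by 0.06, but the SE came almost wholly from the prior over all genes (69.9 prior degrees of freedom against 1 from the arrays), and the single control was taken to have that spread too. In the same comparison 7 of 15 epithelial markers rose, and their part in the IL33 result was not tested. With a prior that has no intensity trend the call was lost (limma's adjusted p = 0.0709).

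IL36G, an epithelial cytokine of the IL36 branch, had signals of 220.5 and 2082 in the controls and of 1639 and 1637 in the siKLF7 arrays. The siKLF7 arrays lay between the controls. The difference was 1.23 (SE 1.04, limma's adjusted p = 0.663) with 4 arrays and -0.34 (SE 0.13, limma's adjusted p = 0.209) with 3 arrays.

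The antagonists did not pass in either fit. IL1RN, the IL1 receptor antagonist, had signals of 2040 and 2920 in the controls and of 2414 and 2234 in the siKLF7 arrays. Both siKLF7 arrays lay between the controls, so the difference was -0.07 (SE 0.21) with 4 arrays and -0.33 (SE 0.11) with 3 arrays, with limma's adjusted p of 0.893 and 0.159. IL36RN, which blocks the IL36 receptor, had signals of 33.4 and 334 in the controls and of 299 and 484 in the siKLF7 arrays. The signal of 33.4 was the lowest of any member. With 4 arrays the size of the IL36RN difference depended on the pseudocount, at 1.83 with a pseudocount of 1 and 1.42 with 32. The siKLF7 arrays lay on either side of scramble control replicate 2 for IL36RN and differed from each other by 0.67, a gap that 0.38% of all genes reached. The difference was 1.59 (SE 0.96) with 4 arrays and 0.18 (SE 0.18) with 3 arrays, with limma's adjusted p of 0.639 and 0.729.

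The receptors were closer to level. IL1R1, the signalling receptor, had signals of 230 and 201 in the controls and of 234 and 217 in the siKLF7 arrays, and the groups overlapped. Its difference was 0.06 (interval -0.28 to 0.40) with 4 arrays and 0.15 (interval -0.17 to 0.47) with 3 arrays. IL1R2, the decoy, had signals of 168 and 143 in the controls and of 125 and 149 in the siKLF7 arrays, which also overlapped. Its difference was -0.17 (interval -0.55 to 0.22) with 4 arrays and -0.06 (interval -0.38 to 0.26) with 3 arrays. All 4 intervals lie within 1 log2 unit of 0. IL1R1 and IL1R2 were dim, however, below the median signal over all genes in every array. That median was 283 and 296 in the controls and 293 and 284 in the siKLF7 arrays. Level signals of such dim genes do not settle whether their expression was stable.

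IL1RAP, the co-receptor shared by IL1R1, IL1RL1 and IL1RL2, had signals of 949 and 970 in the controls and of 1406 and 1063 in the siKLF7 arrays. It was the only member whose controls nearly coincided, at a difference of 0.03, and both siKLF7 arrays lay above them. The siKLF7 arrays differed from each other by 0.40, which is more than the difference between groups. That difference was 0.34 (SE 0.18) with 4 arrays and 0.33 (SE 0.15) with 3 arrays, with limma's adjusted p of 0.639 and 0.364.

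**Figure D2:**
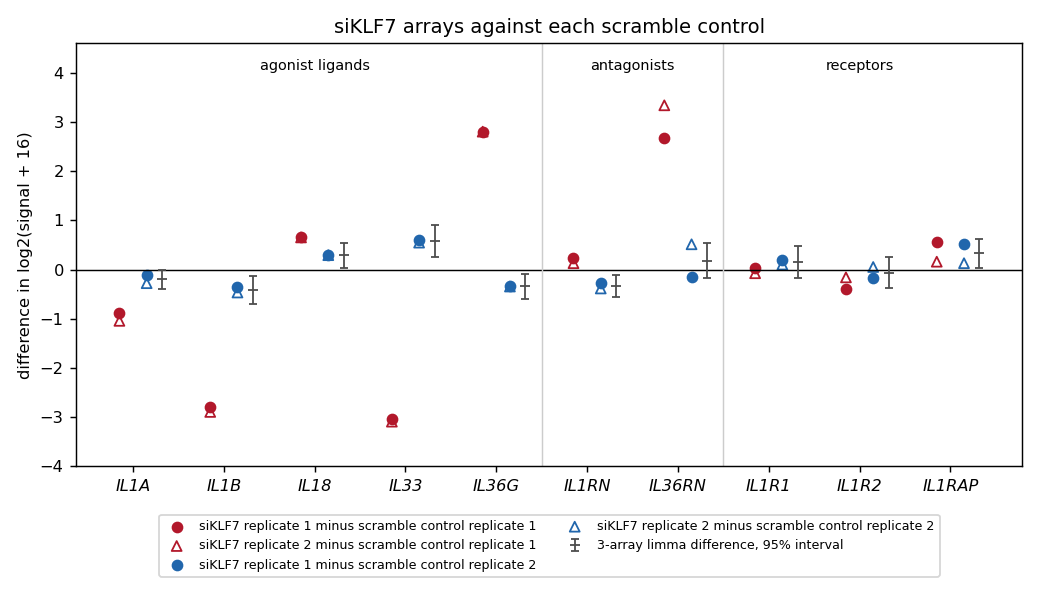
Difference in log2(signal + 16) of each siKLF7 array (circles: replicate 1, triangles: replicate 2) from scramble control replicate 1 (red) and replicate 2 (blue), with the limma difference of the 3-array fit and its 95% interval (grey). Against replicate 1 the members run from -3.09 to 3.34, and against replicate 2 from -0.47 to 0.61.

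As a group, 0 of 10 members passed with 4 arrays in limma, as did 0 of 18417 genes (0%), with 1 member and 5.81% of genes at an unadjusted p under 0.05. With 3 arrays, 1 of 10 members passed, IL33, against 1.57% of all genes, and 7 members had an unadjusted p under 0.05 against 11.3% of all genes. The p-values with 3 arrays rest almost wholly on the prior and on a single control. The members were also chosen with earlier results of these data known. Their counts beside those of all genes are therefore a description and not a test of the members. The siKLF7 arrays lay outside both controls for 4 of 10 members, against 45.2% of all genes, so that share is near the background. Both lay above, or both below, scramble control replicate 2 for 8 of 10 members, against 74.3% of all genes, again near the background. The siKLF7 arrays were below both controls for IL1A and IL1B (28.9% of all genes) and above both for IL18 and IL1RAP (16.3% of all genes). The members' median difference was -0.004 with 4 arrays, beside -0.05 for all genes, and 0.05 with 3 arrays, beside -0.04 for all genes. The exact two-sided permutation test of single members over the 4 arrays gave p = 0.333 for IL1A, IL1B, IL18 and IL1RAP, the smallest that 2 arrays against 2 allow.

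Against scramble control replicate 1 alone, a fit with the same siKLF7 arrays, 6 of 10 members passed in limma, as did 26.8% of all genes. The control arm was then the 1 array that stands apart, with no spread of its own, so these p-values rest on the siKLF7 pair and the prior and do not measure the spread between controls. Lower than that array were IL1A, IL1B and IL33, with differences of -0.96, -2.84 and -3.06 (13.4% of all genes passed as lower), with limma's adjusted p of 1.6e-16, 1.6e-36 and 2.1e-29. Higher were IL18, IL36G and IL36RN, with differences of 0.66, 2.81 and 3.01 (13.4% of all genes passed as higher), with limma's adjusted p of 2.6e-05, 7.7e-29 and 3.5e-27. Of these 6, IL33 and IL36G had the opposite sign against scramble control replicate 2. The siKLF7 mean lay on opposite sides of the controls for 4 of 10 members, IL33, IL36G, IL1RN and IL1R1, against 34.8% of all genes.

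For several members the controls differed from each other more than the siKLF7 arrays did from scramble control replicate 2. The controls were at least 2-fold apart for 4 of 10 members, against 5.31% of all genes. Scramble control replicate 1 was higher for IL33 by 3.64 and for IL1B by 2.43, and lower for IL36G by 3.15 and for IL36RN by 2.83. The median absolute difference between the controls was 0.64 over the members and 0.20 over all genes. Between the siKLF7 arrays it was 0.11 over the members and 0.12 over all genes. Scramble control replicate 1 was the highest or the lowest array for 9 of 10 members, against 69.7% of all genes. In that array 7 of 15 epithelial markers were at least 2-fold lower than in scramble control replicate 2, and 3 of 14 fibroblast and keratocyte markers at least 2-fold higher, and their part in these gaps was not tested. Bulk RNA does not tell fewer cells of a type from less RNA per cell.

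**Figure D3:**
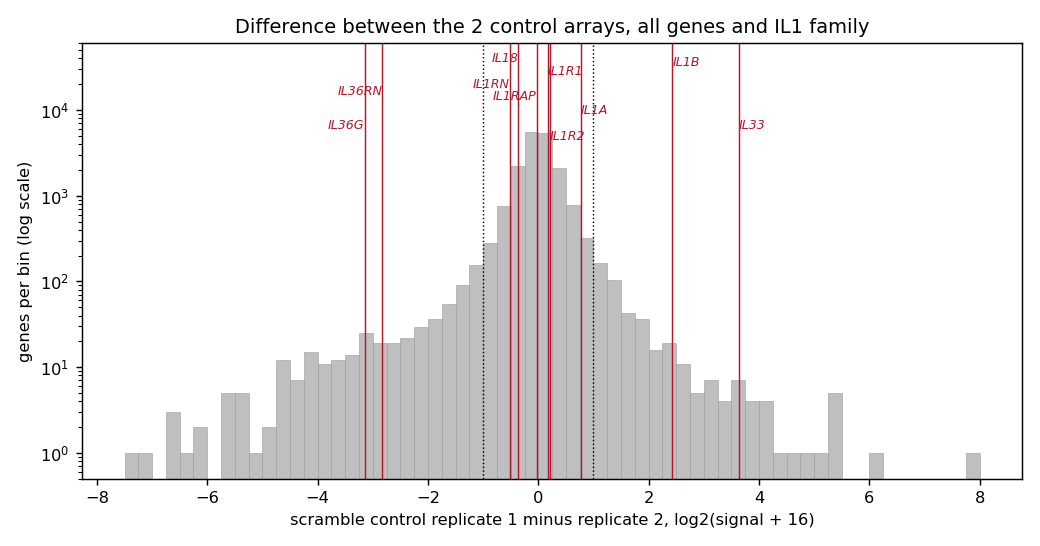
Number of genes (log scale) by the difference between scramble control replicates 1 and 2 in log2(signal + 16), in bins of 0.25, with the IL1 family members as red lines and 2-fold limits dotted. IL36G and IL36RN lie in the lower tail and IL1B and IL33 in the upper tail, beyond the limits that 5.31% of genes pass.

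Most of the ligand genes lie side by side on chromosome 2, in the order IL1A, IL1B, IL37, IL36G, IL36A, IL36B, IL36RN, IL1F10 and IL1RN. Some neighbours there differed in opposite directions between the controls: IL1A and IL1B were higher in scramble control replicate 1, and IL36G, IL36B, IL36RN and IL1RN lower. The remaining genes of the run differed less between the controls, IL37 by -0.18, IL36A by 0.10 and IL1F10 by 0.10. The 4 ligand genes outside the member list did not pass in either fit of limma, and 0 had an unadjusted p under 0.05. IL36A, IL36B and IL37, ligands of the IL36 and IL37 branches, differed by -0.25, 0.34 and -0.01 with 4 arrays and by -0.20, -0.26 and -0.10 with 3 arrays. IL1F10 differed by -0.06 and -0.01. Their signals ran from 28.5 to 109, so these were dim genes. A second run on the same chromosome holds IL1R2, IL1R1, IL1RL2, IL1RL1, IL18R1 and IL18RAP, and none of these 6 receptor genes passed in either fit.

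**Figure D4:**
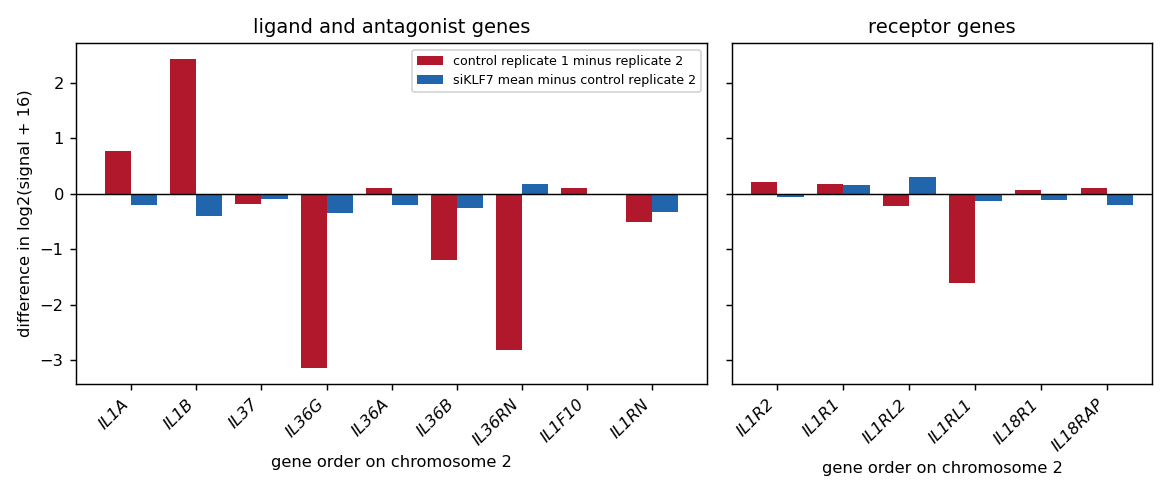
Difference in log2(signal + 16) for the neighbouring IL1 family genes in chromosome order, between the 2 controls (red bars) and between the siKLF7 mean and scramble control replicate 2 (blue bars). The red bars run from -3.15 for IL36G to 2.43 for IL1B, and the blue bars from -0.41 for IL1B to 0.30 for IL1RL2.

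Genes of the receptors' partners and of ligand maturation were measured from lists. Of 8 other receptors and binding proteins, 0 passed in limma with 4 arrays or with 3 arrays, and 1 had an unadjusted p under 0.05 in each fit. IL1RL2, the IL36 receptor, had signals of 205 and 243 in the control and 309 and 294 in the siKLF7 arrays, a difference of 0.41 (SE 0.14) with 4 arrays and 0.30 (SE 0.16) with 3 arrays. Both siKLF7 arrays were above both controls. SIGIRR, an inhibitory receptor of the family, had signals of 182 and 210 in the control and 155 and 158 in the siKLF7 arrays, and differed by -0.29 (SE 0.12) and -0.39 (SE 0.16). IL18RAP, the IL18 co-receptor, differed by -0.26 and -0.21 at signals of 19.5 to 29.1, near the pseudocount of 16. IL18R1, its partner, differed by -0.15 and -0.12, and IL1RAPL1, a neuronal relative, by -0.14 and -0.28.

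Of 18 measured genes of IL1 receptor signalling, 0 passed in either fit of limma (0 and 2 at an unadjusted p under 0.05), and the list median was -0.05 with 4 arrays and -0.01 with 3 arrays. MYD88, the adaptor, had signals of 2799 and 1993 in the control and 1762 and 2007 in the siKLF7 arrays, which overlapped. PELI1, a ubiquitin ligase that acts on IRAK kinases, had 569 and 859 against 1076 and 1041, above both controls, and differed by 0.59 (SE 0.23) and 0.30 (SE 0.15). MAP3K7, the kinase TAK1, had 1526 and 1162 against 1529 and 1539 and differed by 0.20 (SE 0.18) and 0.40 (SE 0.14). PELI2, PELI3 and IKBKB, a kinase of the NF-kB pathway, differed by -0.19, -0.18 and 0.04 with 4 arrays and by -0.17, -0.17 and -0.17 with 3 arrays.

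Of 22 measured genes of ligand processing, 0 passed in either fit of limma (2 and 4 at an unadjusted p under 0.05). CASP1, the protease that matures IL1B and IL18, came nearest. Its signals were 402 and 509 in the control and 804 and 675 in the siKLF7 arrays, with both siKLF7 arrays above both controls. It differed by 0.69 (SE 0.19, limma's adjusted p = 0.639) with 4 arrays and 0.52 (SE 0.16, limma's adjusted p = 0.0846) with 3 arrays. CARD16, whose sequence is close to that of CASP1 so that probes may not separate them, differed by 0.28 and 0.48. CASP4, an inflammatory caspase, had 1255 and 1923 in the control and 1648 and 1533 in the siKLF7 arrays, between the controls. MEFV, ELANE and PRTN3, the gene of pyrin and those of 2 neutrophil proteases, differed by -0.29, -0.27 and -0.31 with 4 arrays.

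Genes that IL1 is known to induce were mostly lower in the siKLF7 arrays, and the calls came from the fit of 3 arrays. Both siKLF7 arrays were below both controls for 22 of 32 measured genes, against 28.9% of all genes, and above both for 1, PTGES. With 4 arrays 0 of 32 passed in limma, and 7 had an unadjusted p under 0.05. With 3 arrays 6 of 32 fell and 1 rose, against 0.679% of all genes that fell and 0.89% that rose. The list median was -0.29 with 4 arrays and -0.25 with 3 arrays, beside -0.05 and -0.04 for all genes. The list shares all 4 arrays with the members and holds genes that were known to be low in these arrays when it was written. Its shares beside those of all genes are therefore a description and not a test of the list.

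The matrix metalloproteinases MMP1 and MMP10, which cut collagens and other matrix proteins, were among the genes that fell with 3 arrays. MMP1 signals were 3436 and 271 in the control and 144 and 156 in the siKLF7 arrays, a fall of 0.79 (SE 0.16, limma's adjusted p = 0.00095) against scramble control replicate 2 and a difference of -2.58 (SE 1.19) with 4 arrays. MMP10 signals were 241 and 134 against 87.0 and 80.1, a fall of 0.59 (SE 0.16, limma's adjusted p = 0.0332) and a difference of -0.98 (SE 0.28) with 4 arrays. For both genes the siKLF7 arrays lay below both controls. IL6 and the chemokine CCL20 had the same order of arrays. IL6 signals were 1326 and 611 against 187 and 177. Its difference was -1.66 against scramble control replicate 2, larger than that of MMP1, and -2.21 (SE 0.38) with 4 arrays. CCL20 signals were 685 and 291 against 184 and 181. Its difference was -0.63 against scramble control replicate 2 and -1.23 (SE 0.41) with 4 arrays.

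LCN2 and SOD2 depended on the control. LCN2, a siderophore-binding protein of epithelia, had signals of 264 and 1477 in the control and 838 and 658 in the siKLF7 arrays, a fall of 0.98 (SE 0.15, limma's adjusted p = 7.8e-06) with 3 arrays and a difference of 0.23 (SE 0.81) with 4 arrays. SOD2, a mitochondrial superoxide dismutase, had 910 and 1673 against 910 and 921, level with scramble control replicate 1. PTGS2, the inducible cyclooxygenase, rose with 3 arrays and lay between the controls, at 3654 and 2513 against 3047 and 3587. SAA2, an acute-phase protein whose sequence is close to that of SAA1, had 192 and 92.3 against 59.6 and 60.2 and did not pass (limma's adjusted p = 0.102 with 3 arrays). CSF3 and IL24, named here after their values were seen, stood at 9028 and 6341 in scramble control replicate 1 and at 224 to 316 and 108 to 143 in the other arrays.

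**Figure D5:**
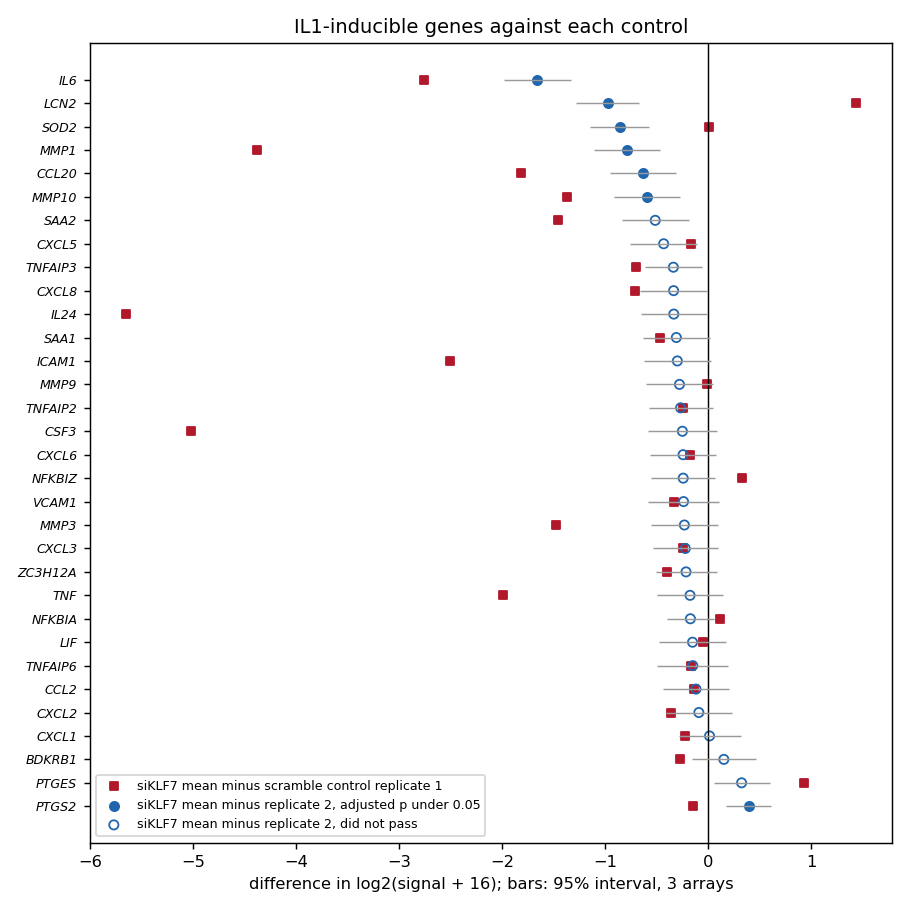
Difference in log2(signal + 16) of the siKLF7 mean from scramble control replicate 1 (red squares) and from replicate 2 (blue circles, filled where limma's adjusted p was under 0.05 with 3 arrays) for 32 IL1-inducible genes, with 95% intervals of the 3-array fit (grey). Most blue circles lie below 0, and IL24, CSF3 and MMP1 have the lowest red squares.

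For each of the 5 members whose arrays spanned at least 1 log2 unit, the genes with the most similar profile were found by the root mean square distance of centred log2 values over the 4 arrays. Nearest to IL1A were CDH3 (P-cadherin), MLKL and FERMT2, at distances of 0.03. Nearest to IL1B were MSLN, MSRB3 and RIMS2, at 0.12, and to IL33 ANTXR2, SNORD116-21 and CCBE1, at 0.17 to 0.19. Nearest to IL36G were CALML5, ADH7 and KLK6 (a kallikrein peptidase), at 0.04 to 0.06. Nearest to IL36RN were OVOL1, an epithelial transcription factor, TMPRSS13 and METRNL, at 0.11 to 0.17. For example, KLK6 had signals of 69.9 and 835 in the control and 617 and 616 in the siKLF7 arrays, the order seen for IL36G. With 4 arrays such profiles rest mostly on the gap between scramble control replicate 1 and the rest.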

How the data were processed

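Total RNA was measured on 4 whole-transcript arrays. The authors deposited linear intensity values, 1 column per array. The submitters' processing notes name Affymetrix Expression Console 1.1.1 and PLIER 2.0. Whether arrays were normalized to each other was not given in the sources used here. Over all features the median signal was 187.5 and 194.3 in the control and 190.3 and 184.9 in the siKLF7 arrays. Of 33297 features, 19460 had 1 gene symbol in the platform annotation, 1754 had several and 12083 were unlisted. The feature with the highest mean was used for each of 18417 genes.

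Values were analysed as log2(signal + 16), and the pseudocount shrinks differences of dim genes. lmFit and eBayes with an intensity trend (limma 3.58.1, R 4.3.3) compared groups, with Benjamini-Hochberg adjustment over all genes, a threshold of 0.05 and 95% intervals, with 4 arrays and without scramble control replicate 1. The fits had 2 and 1 residual and 2.63 and 69.9 prior degrees of freedom, and the number of arrays limits the precision. On simulated data over 18417 genes, the fit of 4 arrays recovered 5% of log2 changes of 1 and 56% of changes of 2, with 3 unchanged genes called. Its noise was drawn independently for each array from each gene's own spread. It therefore does not copy 1 control array that stands apart, and these shares are not the power in the real arrays. The fit of 3 arrays recovered 98% and 100%, with 18 unchanged genes called, on noise drawn to meet its own assumptions, so the recoveries cannot be set against each other.

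The members and gene lists were chosen with earlier results of these data known. Named from each list were up to 4 genes with the smallest limma p in each fit and those that passed. Motifs were searched in the 250 bases before the most upstream start of each member with a promoter, and before every start for the share over all windows. Alternatives were other scalings, pseudocounts, priors, filters on dim genes, feature means, a threshold of 0.10, a block for the replicate number, and fits without each array.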

Additional observations from a re-analysis of the deposited data

How the results depend on the processing

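Leaving out 1 array moved the results most. With 4 arrays, the number of genes that passed ranged from 0 to 4928 and of members from 0 to 6 when 1 array was left out: 289 genes and 1 member without scramble control replicate 1, 4928 genes and 6 members without scramble control replicate 2, and 0 of both without either siKLF7 array. The members' median then ranged from -0.019 to 0.080. Across these fits IL1RN ranged from -0.33 to 0.19, IL33 from -3.06 to 0.58, IL36G from -0.34 to 2.81 and IL1R1 from -0.026 to 0.15, so each changed sign. Without the dimmest 50% of genes the members' median was 0.14 with 4 arrays and -0.26 with 3 arrays, where 6 members were left, IL33 was not among them and 0 passed. With 3 arrays, quantile normalization gave 479 genes and 3 members (IL33, IL1B at -0.43 with limma's adjusted p = 0.0442, and IL1RN at -0.35 with 0.0475) and turned IL1R2 to 0.018. A prior with no intensity trend gave 172 genes and 0 members, with IL33 at limma's adjusted p = 0.0709. The cause of these changes was not tested. In the other settings, without an array left out, no member changed sign or passed or lost the threshold. Same-numbered arrays deviated from their group means with a correlation of -0.042 across genes. With 2 arrays per group and 1 control apart from the rest, this cannot show whether same-numbered arrays were paired. The labels give only the number. With the replicate number as a block in limma, 0 genes and 0 members passed (676 genes at an unadjusted p under 0.05).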
